A study of Mus musculus with 18 samples.

Results

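The 10 genes described here are immediate early genes that are commonly read as markers of neuronal activity: Fos, Fosb, Fosl2, Junb, Egr1, Arc, Npas4, Nr4a1, Ier2 and Dusp1. They were chosen by name, and each was found as 1 row out of 34579 loci in all 3 deposited tables, at the same place in each. RNAseq was performed on dorsal spinal tissue (L3–5) of 3-month-old C57BL/6 mice in 6 groups of 3 mice, 18 mice in all. Intraspinal rAAV expressed LacZ as the control, HDAC4 wt, which is the unmutated histone deacetylase 4, or HDAC4 3SA, an altered form that cannot be phosphorylated for transport to the cytoplasm and is retained in nuclei. Mice with each vector received intraplantar saline or CFA (complete Freund's adjuvant, which inflames the hindpaw), and tissue was taken at 24 h. All groups thus carried a viral vector and an injected paw, and no uninjected cord was compared. The study's vector scheme draws LacZ behind a CMV promoter, which is active in many cell types, and both HDAC4 forms behind a Syn (synapsin) promoter, which is largely neuronal, each with a Flag tag. The tissue also holds cells that a vector did not reach.

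Immediate early genes are transcribed within minutes of a strong stimulus without new protein synthesis, because the factors that switch them on, among them CREB, SRF and MEF2, are already bound or are activated by calcium and kinase signals. Their mRNAs are short-lived, so that a burst of transcription usually fades within hours. In the dorsal horn, FOS protein in particular has long served to map neurons that respond to noxious stimuli of the paw, and class IIa histone deacetylases such as HDAC4 are known as repressors of MEF2-dependent transcription.

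The data allow description only. For each vector the tables give 1 value in FPKM (reads per kilobase of exon and per library size, so a level per length) per treatment, each an estimate over 3 mice. There are no values per mouse, no read counts and no depths, so no SD, interval or test can be given, and no difference below was compared with the spread between mice. Log2 ratios set CFA against saline after 0.1 FPKM was added to both values, which understates differences of low genes. Ratios were read where the mean of the compared values was at least 0.5 FPKM, and a ratio beyond 0.5 in either direction is called past 0.5. The shares of all loci that do the same are given as background.

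At 24 h the CFA and saline levels of the 10 mRNAs lay within 0.5 of each other on the log2 scale, except for Fosb in LacZ mice. With LacZ, 1 of the 10 genes, Fosb, had a ratio above 0.5, where 5.14% of 21440 loci did, and 0 were below -0.5, where 4.38% were. With HDAC4 wt 0 of 9 genes were above 0.5, against 10.7% of loci, and 0 were below -0.5, against 6.78%. With HDAC4 3SA 0 of 9 were above, against 11.3%, and 0 below, against 5.92%. Npas4 did not reach the minimum level with either HDAC4 vector, which left 9 genes there. The small ratios were mostly to the same side: CFA exceeded saline for 9 of 10 genes with LacZ, for 9 of 9 with HDAC4 wt and for 6 of 9 with HDAC4 3SA, where 50.2%, 52.4% and 51.8% of loci had the higher value in the CFA group. The median log2 ratio of the genes was 0.15, 0.28 and 0.34 for LacZ, HDAC4 wt and HDAC4 3SA, beside 0.00, 0.01 and 0.01 over all loci. Cell type markers differed between the same groups. The median log2 ratio was 0.12, 0.25 and 0.62 over 6 microglia markers, -0.09, 0.19 and 0.26 over 5 astrocyte markers and 0.02, -0.18 and -0.26 over 6 neuronal markers, in the same order. Their part in the ratios of the 10 genes was not tested.

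**Figure D1:**
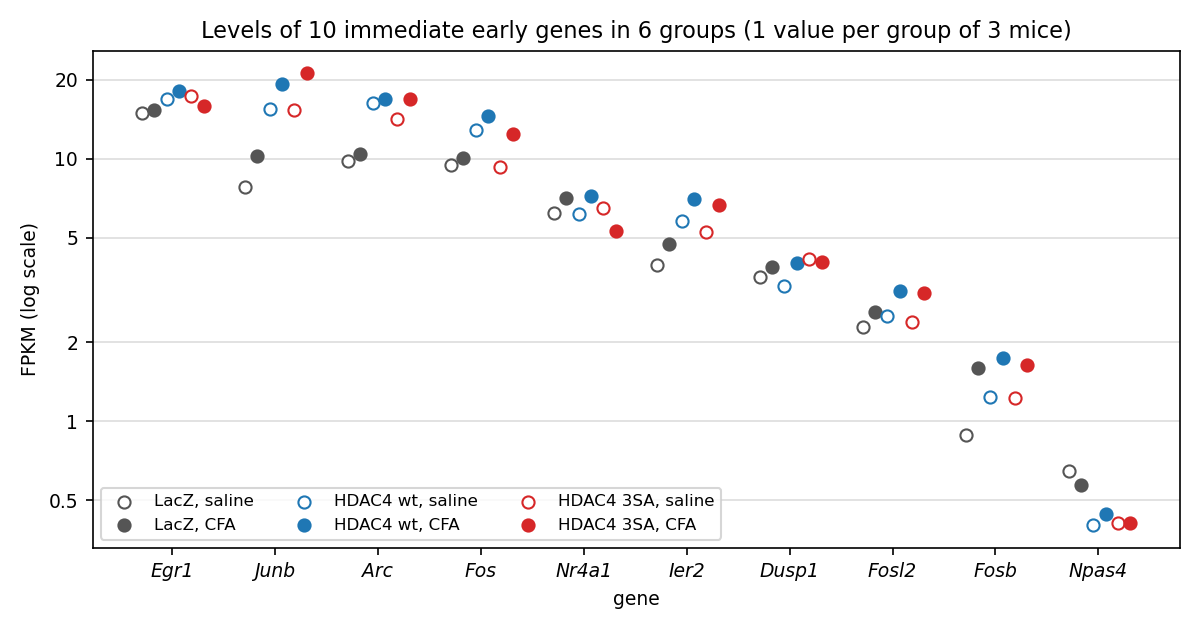
FPKM (log axis) of the 10 genes, ordered by their mean level, with open points for saline and filled points for CFA groups; each point is the authors' estimate over 3 mice and has no error. Junb, Arc and Ier2 lie higher in all 4 HDAC4 groups than in the LacZ groups, and within a vector the open and filled points of most genes lie close together.

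The levels spanned a wide range. In LacZ saline mice the order from the highest to the lowest FPKM was Egr1, Arc, Fos, Junb, Nr4a1, Ier2, Dusp1, Fosl2, Fosb and Npas4, from 14.9 to 0.647 FPKM, a 23.0-fold span. The lower end of this order was the same in every group: Dusp1, Fosl2, Fosb and Npas4 held the last places throughout. The top places changed with the vector. Egr1 led in both LacZ groups and in the saline groups of HDAC4 wt and HDAC4 3SA, and Junb led in the CFA groups of HDAC4 wt and HDAC4 3SA with 19.3 and 21.1 FPKM. Whether neighbours in this order differ beyond the spread between mice cannot be read from group values.

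The sequences before the starts of these genes show one shared element. Promoters of 300 bases, from 250 before to 50 after the annotated start, were taken from RefSeq (GRCm38.p6) and were found for 7 of the 10 genes. The letters TGACG, the core of the cAMP response element to which CREB binds, occurred on either strand in 6 of these 7, against 20.8% of 32851 promoters of the same length. The windows below are shown because they hold this core in the members of the AP-1, NR4A, bHLH-PAS and phosphatase families. Each is read on the strand of the gene, 5′ to 3′, and the capitals mark the core (CGTCA where it lies on the other strand). The capitals of Fos begin 66 bases before the start, those of Fosb 60, those of Junb 106, the printed core of Nr4a1 40, the palindrome of Dusp1 143 and the core on the strand of Npas4 169.
Fos: agttccgcccagTGACGtaggaagtccat
Fosb: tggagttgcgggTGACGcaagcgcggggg
Junb: gcttcctgacagTGACGcgagccgcctcc
Nr4a1: cccctctccatgCGTCAcggagcgcttaa
Npas4: gaCGTCAcgggaTGACGtcggaagtctgg
Dusp1: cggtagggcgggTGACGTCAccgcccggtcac

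Nr4a1 held 4 such cores in its 300 bases, Dusp1 3, Fos and Npas4 2 each, and Fosb and Junb 1 each, with overlapping matches counted separately. The full palindrome TGACGTCA was found in Dusp1 alone among the 7, against 1.79% of promoters. The letters TATAAA occurred in Fos and Junb, against 13.6% of promoters. The AP-1 site TGANTCA (7.81% of promoters), the CArG box bound by SRF (1.63%) and the MEF2 site (3.19%) had no match in any of the 7 windows, which says only that these letters are not in these 300 bases. Fosl2 had no match of the core, and Egr1, Arc and Ier2 were not matched. None of these matches was tested for binding here.

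The AP-1 subunits are read first. FOS, FOSB and FOSL2 form dimers with JUN proteins such as JUNB, and these dimers bind AP-1 sites. Fosb (chr7:19302693-19310040 on GRCm38, minus strand, 4 exons) was the one gene with a ratio above 0.5. Its FPKM was 0.883 in saline and 1.59 in CFA mice with LacZ, 1.24 and 1.74 with HDAC4 wt, and 1.23 and 1.63 with HDAC4 3SA. The CFA value was the higher one with each vector, the 3 CFA values lay close together, and the LacZ saline value was the lowest of the 6. The CFA value was 1.81 times the saline value with LacZ (log2 ratio 0.79), 1.41 times with HDAC4 wt (0.46) and 1.33 times with HDAC4 3SA (0.39). Of all loci read with LacZ, 2.28% had a ratio at least that of Fosb. Low loci vary more: among those within 2-fold of the mean level of Fosb, 8.6% were above 0.5. With 1 FPKM added in place of 0.1 the log2 ratios of Fosb became 0.46, 0.29 and 0.24, which left no gene above 0.5 with LacZ. The promoter of Fosb (chr7:19309996-19310295, GRCm38.p6, minus strand, with the CREB core in capitals) is shown whole because it belongs to the one gene past 0.5.
Fosb: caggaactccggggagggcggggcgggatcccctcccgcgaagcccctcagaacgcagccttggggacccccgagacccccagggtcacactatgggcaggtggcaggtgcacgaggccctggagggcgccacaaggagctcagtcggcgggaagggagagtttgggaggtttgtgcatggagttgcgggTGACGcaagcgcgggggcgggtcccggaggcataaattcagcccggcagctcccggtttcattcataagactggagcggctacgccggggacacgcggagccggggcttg

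Markers of blood-borne cells differed between the same LacZ groups. The summed FPKM of 6 neutrophil markers was 11.0 in saline and 112 in CFA mice with LacZ, with all 6 markers above 0.5, and it was 41.3 and 28.4 with HDAC4 wt and 61.6 and 38.3 with HDAC4 3SA. Their part in the ratio of Fosb was not tested.

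Fos (chr12:85473657-85477319, plus strand, 4 exons), the gene most often used to mark activated dorsal horn neurons, had 9.49 FPKM in saline and 10.05 in CFA mice with LacZ. Its values were 12.8 and 14.6 with HDAC4 wt and 9.28 and 12.4 with HDAC4 3SA. The log2 ratios were 0.08, 0.18 and 0.41 in that order, and 30.3%, 25.7% and 13.8% of loci had a ratio at least as high. Fos in LacZ mice thus was 1.06-fold higher in CFA than in saline mice, and both LacZ values and the HDAC4 3SA saline value were lower than the other 3.

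Fosl2 (chr5:32135473-32157848, plus strand, 4 exons), which encodes the longer-lived FOS-related antigen, had 2.28 and 2.61 FPKM with LacZ, 2.50 and 3.13 with HDAC4 wt and 2.38 and 3.09 with HDAC4 3SA. With each vector the CFA value was the higher one, with log2 ratios of 0.18, 0.31 and 0.36. Junb (chr8:84976907-84978883, minus strand, 1 exon), whose product often restrains JUN, had 7.83 and 10.2 FPKM with LacZ, 15.5 and 19.3 with HDAC4 wt and 15.3 and 21.1 with HDAC4 3SA. CFA exceeded saline by 1.31, 1.25 and 1.38-fold (log2 ratios 0.38, 0.32 and 0.46), and Junb had the highest log2 ratio of the genes with HDAC4 3SA. With LacZ 7.65% of loci had a ratio at least that of Junb. All 4 AP-1 genes were higher in the CFA group with every vector, by log2 ratios of 0.08 to 0.79.

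The other transcription factors were less uniform. Egr1, a zinc finger factor (chr18:34860969-34864990, plus strand, 3 exons), had 14.9 and 15.3 FPKM with LacZ, 16.9 and 18.1 with HDAC4 wt and 17.4 and 15.8 with HDAC4 3SA. Its log2 ratios were 0.04, 0.10 and -0.14. Nr4a1 (chr15:101266827-101274797, plus strand, 7 exons), an orphan nuclear receptor and known MEF2 target, had 6.22 and 7.08 FPKM with LacZ, 6.16 and 7.17 with HDAC4 wt and 6.50 and 5.29 with HDAC4 3SA. The HDAC4 3SA CFA value was the lowest of the 6, and the ratios were 0.18, 0.22 and -0.29. Egr1 and Nr4a1 were therefore higher in the CFA group with LacZ and HDAC4 wt and lower in it with HDAC4 3SA. Most neuronal markers were lower in the same CFA group. With HDAC4 3SA the median log2 ratio was -0.26 over 6 neuronal markers, -0.42 over 5 excitatory and -0.33 over 5 inhibitory dorsal horn markers. Of these, 4, 4 and 5 were lower, while Nefl (0.14), Stmn2 (0.04) and Prrxl1 (0.22) were higher. With HDAC4 wt, where Egr1 and Nr4a1 were higher in the CFA group, the medians of the same lists were -0.18, -0.23 and -0.16. There 4 markers of each list were lower. The part of these markers was not tested.

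Npas4 (chr19:4984363-4990232, minus strand, 8 exons), a factor that responds selectively to calcium entry in neurons, was the lowest of the 10 genes in every group. It had 0.647 and 0.570 FPKM with LacZ, 0.401 and 0.443 with HDAC4 wt and 0.409 and 0.408 with HDAC4 3SA. The LacZ log2 ratio was -0.16, and the HDAC4 groups all lay below the LacZ groups and under the minimum of 0.5 FPKM.

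Arc (chr15:74669080-74672667, minus strand, 3 exons), a synaptic effector that regulates AMPA receptor endocytosis, had 9.81 and 10.4 FPKM with LacZ, 16.2 and 16.8 with HDAC4 wt and 14.1 and 16.9 with HDAC4 3SA. The log2 ratios were 0.09, 0.05 and 0.25. Ier2 (chr8:84661328-84662863, minus strand, 1 exon), an immediate early gene with a nuclear product, had 3.93 and 4.72 FPKM with LacZ, 5.76 and 7.03 with HDAC4 wt and 5.25 and 6.66 with HDAC4 3SA. Its ratios were among the steadiest, at 0.26, 0.28 and 0.34. Dusp1 (chr17:26505588-26515734, minus strand, 4 exons), the phosphatase that switches off MAP kinases, had 3.53 and 3.87 FPKM with LacZ, 3.28 and 4.00 with HDAC4 wt and 4.14 and 4.04 with HDAC4 3SA. Its ratios were 0.13, 0.28 and -0.03, and all 6 values lay between 3.28 and 4.14 FPKM.

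**Figure D2:**
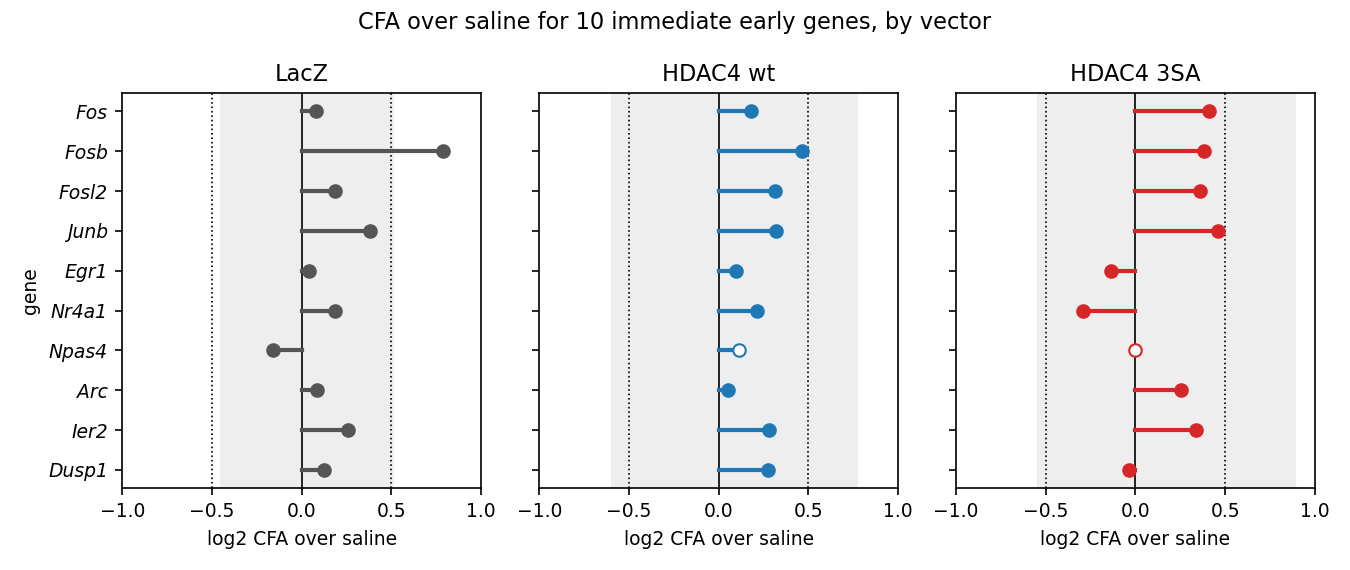
Log2 ratio of CFA over saline for each gene and vector (bars from 0); grey marks the 5th to 95th percentile of all loci, dotted lines mark -0.5 and 0.5, and open points are below the minimum level. Fosb with LacZ (0.79) is the one point outside the dotted lines and the grey band, and Egr1, Nr4a1 and Dusp1 point left with HDAC4 3SA.

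The grey band in the plot of ratios by gene shows how wide the tables are: 5% of loci lay below -0.45 with LacZ, -0.59 with HDAC4 wt and -0.54 with HDAC4 3SA, and 5% above 0.51, 0.77 and 0.89. Apart from Fosb with LacZ, every ratio of the genes lay inside this band. The comparison of the vectors asks whether wild-type or nuclear HDAC4 goes with a different difference between CFA and saline. The ratio with HDAC4 wt minus that with LacZ was beyond 0.5 for 0 of 9 genes, against 18.9% of loci. For HDAC4 3SA minus LacZ it was 0 of 9, against 16.5%. For HDAC4 3SA minus HDAC4 wt it was 1 of 9, against 19.6%, and that gene was Nr4a1 with a difference of -0.51, which was -0.44 with 1 FPKM added and so no longer beyond 0.5. The largest differences from LacZ with HDAC4 3SA were -0.47 for Nr4a1 and -0.40 for Fosb on one side and 0.33 for Fos on the other, and with 1 FPKM added that of Fosb was -0.22. No difference between vectors was tested, and the 2 comparisons with LacZ share its groups.

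**Figure D3:**
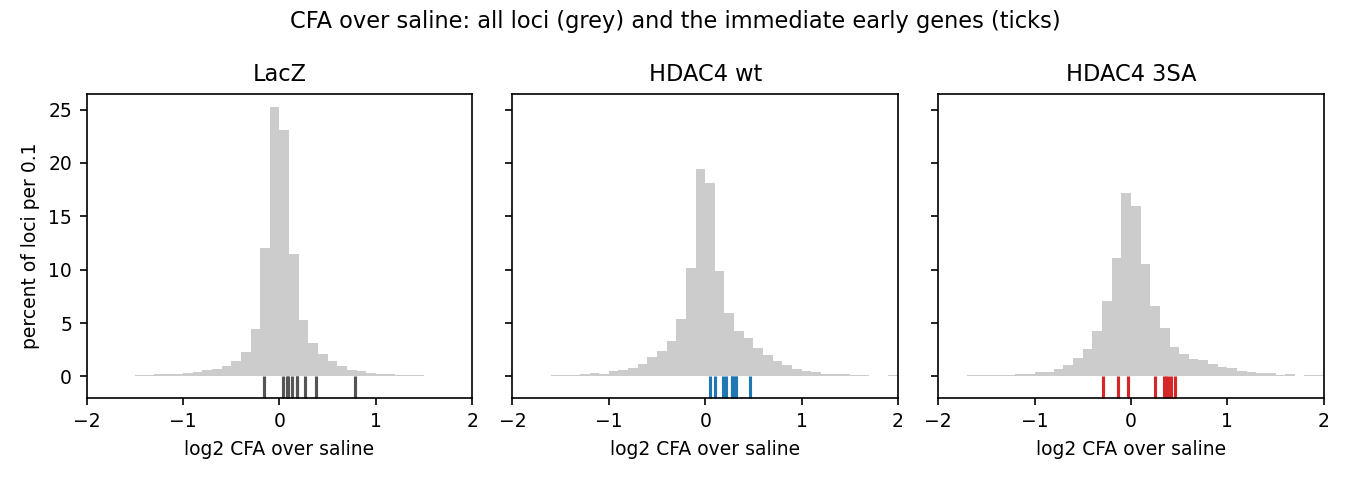
Distribution of the log2 ratio of CFA over saline over all loci of at least 0.5 FPKM (grey bars, percent of loci in steps of 0.1, values beyond 2 not drawn), with 1 tick below for each of the immediate early genes that reached the minimum. The ticks lie within the body of each distribution, mostly right of 0, with Fosb at 0.79 alone at the right with LacZ.

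Levels between vectors are given without weight, because each table comes from its own Cuffdiff run with its own scaling. The HDAC4 vectors also differ from the LacZ vector in their promoter, so the transgene and the promoter cannot be told apart in these comparisons. Relative to LacZ, 3 of 10 genes were above 0.5 in HDAC4 wt saline mice (Junb, Arc and Ier2), where 16.1% of loci were, and 1 was below -0.5 (Npas4), where 12.9% were. In the CFA groups of the same vectors 4 of 10 were above (Junb, Arc, Ier2 and Fos), against 15.6%, and 0 below, against 8.55%. With HDAC4 3SA 2 of 10 were above in saline mice (Junb and Arc), against 13.3%, and 1 below (Npas4), against 11.7%. In its CFA groups 2 of 9 were above (Junb and Arc), against 18.1%, and 0 below, against 13.4%. The median log2 ratio over LacZ was 0.30 and 0.24 for HDAC4 wt and 0.22 and 0.23 for HDAC4 3SA in saline and CFA groups, beside 0.04, 0.02, 0.03 and 0.02 over all loci.

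Junb had the largest of these ratios. It was 1.98-fold and 1.89-fold higher with HDAC4 wt and 1.96-fold and 2.06-fold higher with HDAC4 3SA than with LacZ, in saline and CFA mice respectively. Arc was 1.66-fold and 1.61-fold higher with HDAC4 wt and 1.44-fold and 1.62-fold higher with HDAC4 3SA. Ier2 was 1.47-fold and 1.49-fold higher with HDAC4 wt, and 1.34-fold and 1.41-fold higher with HDAC4 3SA. Npas4 in saline mice stood at 0.620 and 0.633 of its LacZ level. With HDAC4 wt the level of Fos was 1.35-fold and 1.45-fold that with LacZ, but with HDAC4 3SA it was 0.978-fold in saline and 1.23-fold in CFA mice. Egr1, Nr4a1, Fosb, Fosl2 and Dusp1 lay within 0.5 on the log2 scale in all 4 comparisons. The level of Hdac4 itself, which may include transgene reads, was 7.41 and 7.72 FPKM with LacZ, 10.1 and 10.8 with HDAC4 wt and 8.86 and 8.81 with HDAC4 3SA.

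Markers of other cells differed between the vectors as well. The summed FPKM of 6 microglia markers was 90.85 and 104 with LacZ, 499 and 646 with HDAC4 wt and 372 and 670.5 with HDAC4 3SA, for saline and CFA. Of the 6, 5 were above 0.5 over LacZ in both saline comparisons and 6 in both CFA comparisons; C1qa had 37.5 and 49.9 FPKM with LacZ and 254 to 500 with the HDAC4 vectors, and P2ry12 had 9.30 to 11.1 and 13.6 to 14.5. The summed FPKM of 6 neuronal markers was 3339 and 3285 with LacZ, 2414 and 2229 with HDAC4 wt and 2740 and 2340 with HDAC4 3SA, and that of 5 astrocyte markers was 771.7 and 766.2, 1224 and 1494, and 1220 and 1547. Members of both lists went different ways in saline mice. Gfap (389 FPKM with LacZ, 807 with HDAC4 wt and 805 with HDAC4 3SA) and Aqp4 carried the astrocyte sum, while the glutamate transporter genes Slc1a2 (190.5, 159 and 173 FPKM) and Slc1a3 (38.4, 27.2 and 28.4 FPKM) were lower with the HDAC4 vectors. Snap25 (1227, 795 and 861 FPKM) and Nefl (493.6, 235 and 308 FPKM) carried much of the neuronal sum, while Rbfox3 (71.6, 68.0 and 73.7 FPKM) and Syt1 (86.2, 90.8 and 84.6 FPKM) lay close to their LacZ levels. In bulk tissue fewer cells of a type and less RNA per cell cannot be told apart, and the part of these markers in the levels of Junb, Arc and Ier2 was not tested.

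**Figure D4:**
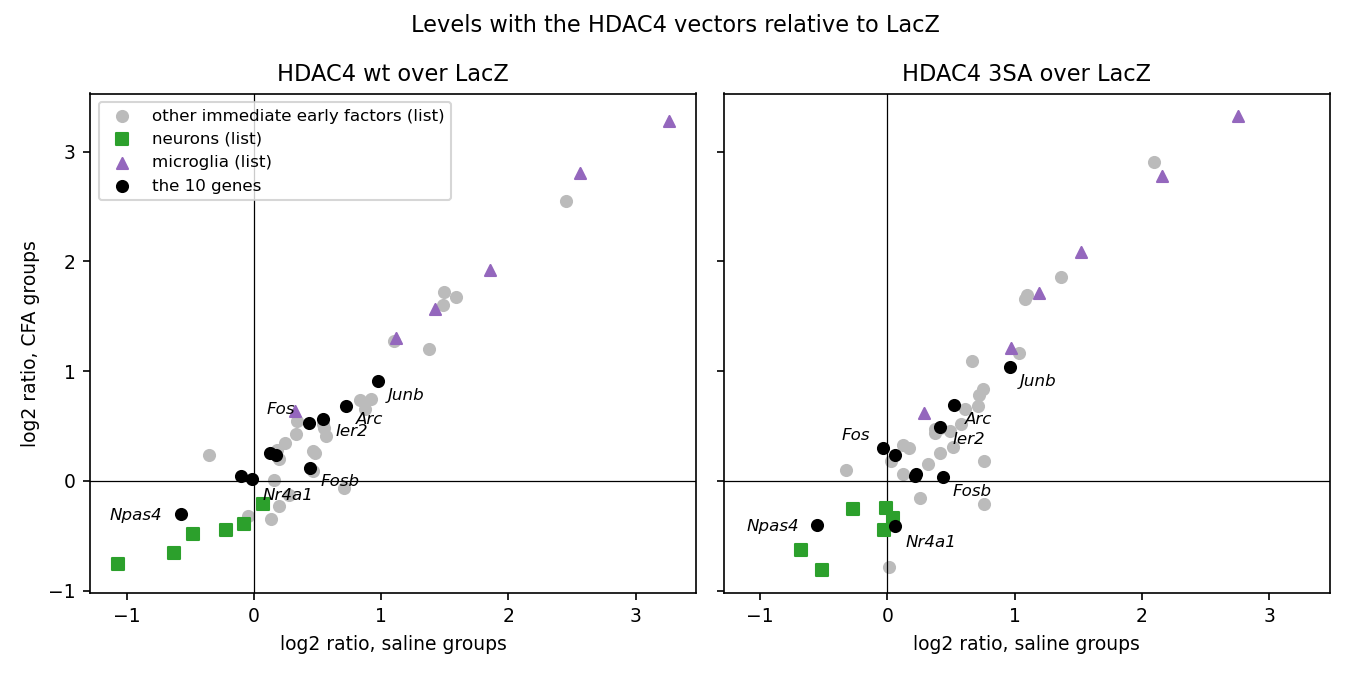
Log2 ratio of the HDAC4 wt (left) and HDAC4 3SA (right) level over the LacZ level, in saline groups (x axis) and CFA groups (y axis); black points are the 10 genes, grey points the other immediate early factors, triangles 6 microglia markers and squares 6 neuronal markers. Junb lies near 1 on both axes, Npas4 lies left of 0, and the microglia marker C1qa lies highest, at 3.28 with HDAC4 wt and 3.32 with HDAC4 3SA on the y axis.

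Other genes of the pathway were read in 5 lists. Of 28 other immediate early factors, 2 were above 0.5 with LacZ and 0 below -0.5, 1 above and 1 below with HDAC4 wt, and 7 above and 1 below with HDAC4 3SA, with median log2 ratios of 0.24, 0.17 and 0.27. The shares of all loci above 0.5 were 5.14%, 10.7% and 11.3%, and those below -0.5 were 4.38%, 6.78% and 5.92%. The 2 with LacZ were the zinc finger factors Egr2 (2.53 and 4.23 FPKM, log2 ratio 0.72) and Egr4 (0.687 and 1.11 FPKM, 0.62). Their ratios were -0.06 and 0.21 with HDAC4 wt, and -0.25 and 0.04 with HDAC4 3SA. Egr4 lay at a low level, and its ratio with 1 FPKM added was not read. The median log2 ratio of 4 Schwann cell markers, a cell type that uses Egr2, was 0.55, 0.01 and -0.63 with LacZ, HDAC4 wt and HDAC4 3SA, and their part in the ratios of Egr2 was not tested. Klf2 was the one above with HDAC4 wt (5.60 and 8.31 FPKM, 0.56). Egr3 was below with both HDAC4 vectors (2.16 and 1.44 FPKM, -0.56, with HDAC4 wt, and 1.98 and 1.03 FPKM, -0.88, with HDAC4 3SA). The 7 with HDAC4 3SA were Atf3, Maff, Cyr61, Trib1, Ier3, Zfp36 and Btg2. Atf3, a stress-induced factor of injured neurons and glia, had 4.29 and 8.98 FPKM there (1.05). The summed microglia markers were 1.80-fold higher after CFA with the same vector, and 4 of the 6 were above 0.5. The summed FPKM of 3 dorsal root ganglion markers went from 22.3 to 50.8, with Prph at 15.6 and 43.5 FPKM. With HDAC4 wt that sum went from 12.4 to 32.1, where the log2 ratio of Atf3 was 0.34. Avil, another of them, had 0.933 and 0.853 FPKM with LacZ, 3.16 and 9.96 with HDAC4 wt and 6.28 and 6.93 with HDAC4 3SA. The part of these markers in the levels of Atf3 was not tested.

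Of these 7 genes, all but Ier3 were also above 0.5 over LacZ in the 4 comparisons of HDAC4 vectors. Of 27 other immediate early factors at a comparable place, 13 were above 0.5 over LacZ in HDAC4 wt saline mice and 14 in HDAC4 3SA saline mice, with 0 below in either. In the CFA groups 11 were above with each HDAC4 vector, 0 were below with HDAC4 wt and 1, Egr3 (log2 ratio -0.79), was below with HDAC4 3SA. The shares of all loci above 0.5 were 16.1% and 13.3% in the saline and 15.6% and 18.1% in the CFA comparisons, for HDAC4 wt and HDAC4 3SA. Atf3 had 0.926 and 1.11 FPKM with LacZ, 5.51 and 6.98 with HDAC4 wt and 4.29 and 8.98 with HDAC4 3SA. Btg2, an antiproliferative immediate early gene, had 4.03 and 4.06, 12.3 and 13.2, and 10.5 and 15.0 FPKM. The row named Jun was left out of these counts, as its place in the LacZ table (chr4:95051716-95052378) does not overlap that in the others (chr4:95048989-95051583).

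Of 6 other MAP kinase phosphatases 0 were past 0.5 with any vector, with medians of 0.06, 0.10 and 0.02; the largest ratios were those of Dusp2 with LacZ (0.38) and HDAC4 wt (0.45) and of Dusp6 with HDAC4 3SA (0.42), while Dusp4 stood at -0.31 there. Of 12 delayed activity-regulated effectors, 1 was above 0.5 with each vector, Ptgs2, the inducible cyclooxygenase. It had 0.456 and 0.774 FPKM with LacZ, 0.747 and 1.33 with HDAC4 wt and 0.673 and 1.49 with HDAC4 3SA, for log2 ratios of 0.65, 0.75 and 1.04. These levels are low, where the ratio depends on the added value, and ratios of Ptgs2 with 1 FPKM added were not read. With HDAC4 3SA 2 of the 12 were below -0.5. These were Pcsk1, a prohormone convertase (8.77 and 5.62 FPKM, -0.63), and Nptx2, a synaptic pentraxin (6.52 and 4.56 FPKM, -0.51). The medians of this list were 0.12, 0.05 and -0.10, and with HDAC4 3SA 8 of the 12 were lower in the CFA group. Of all loci 5.14%, 10.7% and 11.3% were above 0.5 with LacZ, HDAC4 wt and HDAC4 3SA, and with HDAC4 3SA 5.92% were below -0.5 and 51.8% above 0. The summed neuronal markers of that vector were 2740 FPKM in saline and 2340 FPKM in CFA mice, and their part was not tested.

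Of 16 upstream regulators, among them Creb1, Srf and the MEF2 genes, 0 were past 0.5 with any vector, with medians of 0.04, -0.03 and -0.03. The shares of all loci above 0.5 were 5.14%, 10.7% and 11.3%. Those below -0.5 were 4.38%, 6.78% and 5.92%, in the order LacZ, HDAC4 wt and HDAC4 3SA. The largest ratios of the regulators were those of Mapk3 (0.20) and Srf (0.19) with LacZ, Camk2a (-0.32) and Crtc1 (-0.16) with HDAC4 wt and Camk2a (-0.44) and Camk4 (-0.33) with HDAC4 3SA.

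**Figure D5:**
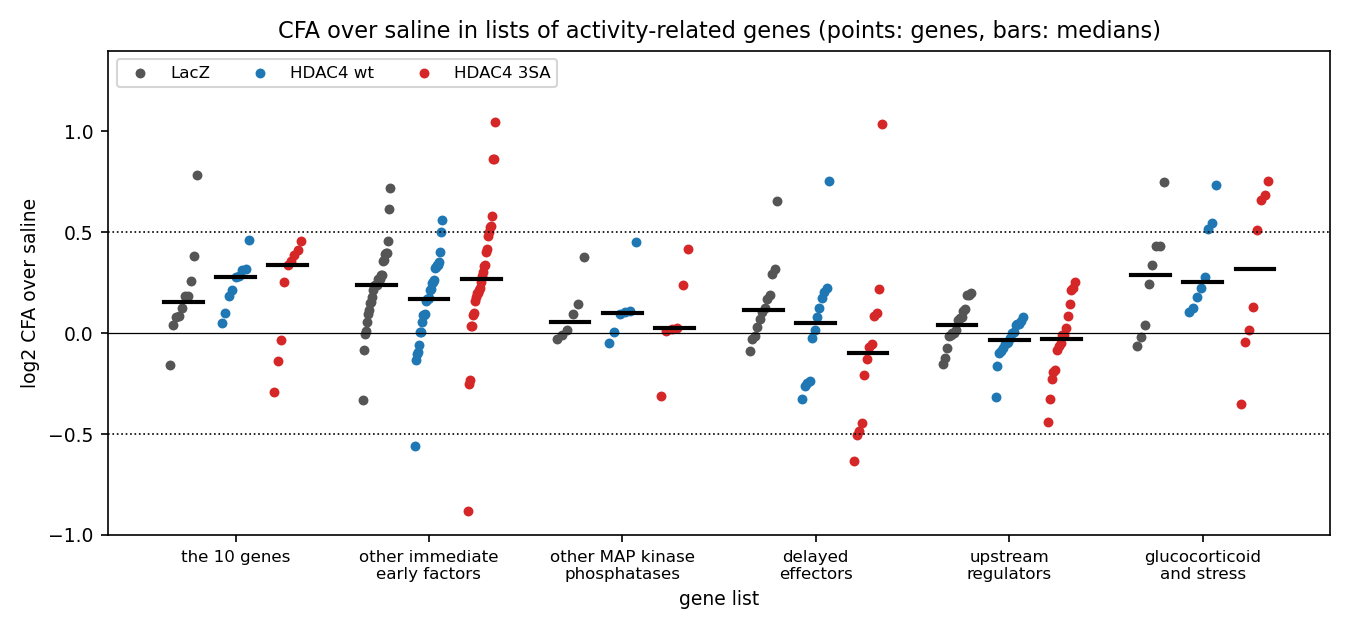
Log2 ratio of CFA over saline for each gene of at least 0.5 FPKM in the 10 genes and in 5 lists of related genes, by vector; points are genes, black bars are medians and dotted lines mark -0.5 and 0.5. Most points lie within the dotted lines, Atf3 (1.05) and Ptgs2 (1.04) lie highest with HDAC4 3SA, and the median of the delayed effectors goes from 0.12 with LacZ to -0.10 with HDAC4 3SA.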

How the data were processed

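RNAseq of dorsal spinal tissue was read from 3 deposited tables, 1 per vector. Per the labels and the study's methods, the authors used Bowtie, TopHat, Cufflinks, Cuffmerge and Cuffdiff with mm10/GRCm38 and Ensembl release 85, on strand-specific libraries from 0.3 µg of RNA per mouse. The deposited FPKM values are 1 Cuffdiff estimate per group over 3 mice. The deposited log2 fold change, the test statistic (a score that the authors deposited), and the deposited p-value and its adjusted q-value are the authors' own comparison and were not read. Values per mouse, counts and depths are not in these tables, so the precision of a value is unknown and the planned tests per mouse could not be run.

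Values were read with Python 3.11.15, numpy 2.4.6 and pandas 2.3.3. Ratios are log2((CFA + 0.1)/(saline + 0.1)) at a minimum mean of 0.5 FPKM. Past 0.5 is the fold threshold of the study. The script was tested on simulated data. Loci were matched by identifier, and the 386 whose places do not overlap between tables were left out of comparisons between vectors. Exons are from GENCODE M21, which has no other gene in the loci of the 10. Marker and pathway lists held 145 genes, of which 138 matched. The 10 genes and the lists were chosen with earlier results of these data known. The genes named are the 10, Hdac4, the 2 largest absolute ratios per list and vector at a mean of at least 1 FPKM, and the 5 nearest to Fos. Ptgs2, the members of a list past 0.5, the other glucocorticoid and stress genes, the cell type markers and Jun were named after their values were seen. Alternatives were other added values, thresholds, minimums, centring and summed rows; those for levels over LacZ were chosen after seeing the data. The result of 1 marker list is not reported here.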

Additional observations from a re-analysis of the deposited data

How the results depend on the processing

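Of 350 values recomputed under alternatives, 328 moved by less than 0.1 on the log2 scale or stayed within 1.5 times their count, 22 moved further and 0 changed direction. With LacZ, the count of genes above 0.5 was 0 with 1 FPKM added, 0 at a threshold of 1, 0 at a minimum of 5 FPKM and 2 at a threshold of 0.3. At a threshold of 0.3 it was 3 with HDAC4 wt and 5 with HDAC4 3SA, where 10.4% (LacZ), 18.5% and 18.7% of loci were above. With 1 FPKM added, the genes over LacZ in HDAC4 wt were 0 below -0.5 in saline and 2 above 0.5 in CFA mice, and in HDAC4 3SA saline mice 1 above and 0 below. At a threshold of 1 these comparisons gave 0 above and 0 below for HDAC4 wt in saline mice, 0 above for HDAC4 wt in CFA mice, 0 above and 0 below for HDAC4 3SA in saline mice and 1 above for HDAC4 3SA in CFA mice. Summing rows could not change a value, since each name had 1 row. Its 60 values per gene and 9 counts and medians are nevertheless among the 328. No paired analysis was possible because the tables hold 1 value per group, and for the same reason leaving out each mouse was not run. Depth is unknown, so no limit from it can be given.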

Other observations

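Across the 3 vectors, the 5 genes whose log2 ratios of CFA over saline lay nearest to those of Fos (0.08, 0.18 and 0.41), by Euclidean distance among 14512 single-gene loci of at least 1 FPKM in every group, were Cndp2, Phlda3, D8Ertd82e, Rilp and Akap13. Cndp2, a dipeptidase, lay at a distance of 0.011 with ratios of 0.09, 0.17 and 0.41. Phlda3, a p53 target, lay at 0.0121 with 0.08, 0.18 and 0.42. The distance rests on 3 points per gene. Among the other immediate early genes, Fosl2 ranked 545, Arc 816, Ier2 906, Junb 2494, Dusp1 5587, Egr1 8593 and Nr4a1 11560 by the same distance, and Fosb and Npas4 did not reach 1 FPKM in every group.

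Genes of the glucocorticoid and stress response were read in the same way. Of 8 such genes past the minimum, 1 was above 0.5 with LacZ, 3 with HDAC4 wt and 4 with HDAC4 3SA, with medians of 0.29, 0.25 and 0.32 and 0 below -0.5; 5.14%, 10.7% and 11.3% of loci were above. Sult1a1 had 6.46 and 10.9 FPKM with LacZ (log2 ratio 0.75), 8.83 and 9.52 with HDAC4 wt (0.11) and 9.96 and 7.78 with HDAC4 3SA (-0.35). Sgk1, a kinase gene induced by glucocorticoids, had 15.7 and 21.2 FPKM with LacZ (0.43), 28.6 and 47.6 with HDAC4 wt (0.74) and 32.1 and 45.9 with HDAC4 3SA (0.51). The metallothionein gene Mt2 had 89.7 and 106 FPKM with LacZ (0.24), 155 and 226 with HDAC4 wt (0.55) and 138 and 222 with HDAC4 3SA (0.68), and the related Mt1 had log2 ratios of 0.34, 0.52 and 0.66. Cdkn1a, a p53 target and cell cycle inhibitor, had 14.6 and 19.7 FPKM with LacZ (0.43), 117 and 132 with HDAC4 wt (0.18) and 90.7 and 153 with HDAC4 3SA (0.75). The rest of the list stayed within 0.5 with every vector or was too low. In the same order of vectors, the log2 ratios were 0.04, 0.22 and -0.04 for Tsc22d3 and -0.07, 0.28 and 0.13 for Zbtb16. Those of Errfi1 were -0.02, 0.12 and 0.01, and Fkbp5 did not reach the minimum with any vector.

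The dorsal horn markers gave these values for saline and CFA. The summed FPKM of 5 markers of excitatory dorsal horn neurons was 162 and 172 with LacZ, 157 and 132 with HDAC4 wt and 138 and 102 with HDAC4 3SA, and that of 5 markers of inhibitory neurons was 326 and 310, 259 and 230, and 263 and 201. Endothelial markers summed to 58.9 and 58.7, 72.2 and 79.9, and 69.8 and 81.8 FPKM. Smooth muscle and pericyte markers summed to 42.4 and 40.4, 50.1 and 54.7, and 47.8 and 54.6. Meningeal fibroblast markers summed to 127 and 171, 174 and 181, and 159 and 169. Schwann cell markers summed to 960 and 1462, 972.5 and 967, and 1315 and 839. Red blood cell markers (2 matched) summed to 141 and 260, 187 and 203, and 347 and 394. Skeletal muscle markers summed to 14.4 and 31.9, 4.49 and 0.8, and 47.1 and 38.9, with Myh1 listed at 0 in a group. Dorsal root ganglion markers (3 matched) summed to 22.0 and 27.4, 12.4 and 32.1, and 22.3 and 50.8.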
